A study of Mus musculus with 2 samples.

Results

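miR-221 and miR-222 are a pair of microRNAs cut from neighbouring hairpins, and the 4 names studied here are both arms of each: mmu-miR-221-3p, mmu-miR-222-3p, mmu-miR-221-5p and mmu-miR-222-5p (mmu- stands for mouse and is left out where no doubt arises). They were found by exact name among the 1881 mouse miRNAs on the array, and all 4 were present. The samples were RNA from exosomes, small vesicles released by cells, collected from the supernatant of the Lewis lung carcinoma (LLC) line, established from a mouse lung tumour. Before collection the cultures spent 24 h without serum and with cisplatin, a DNA-damaging platinum drug, at 5 µM. There was 1 group of 2 independent experiments, each read on its own Cy3 array. Untreated cells were not analysed here, so the arrays show which members gave a signal and how far that signal repeated, and nothing about a response to the drug.

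A hairpin yields a 5p and a 3p arm, and in most tissues one arm is kept as the guide strand while its partner is degraded. For miR-221 and miR-222 the 3p arm is the guide. Both guides carry the same seed, the stretch near the 5′ end that pairs with target mRNAs, and they are known to repress the cell-cycle inhibitors p27(Kip1) and p57(Kip2), the receptor Kit and the protease inhibitor Timp3. They are often raised in carcinomas and are also well known from endothelium and vascular smooth muscle.

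The mature sequences below are shown because the shared seed is what makes the 3p members a family, and the seed (bases 2 to 8) is in capitals. RefSeq (build GRCm38.p6) held 3 of the 4 members, and also miR-1928, another name on this array with the same seed.
miR-221-3p: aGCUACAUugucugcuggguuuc
miR-222-3p: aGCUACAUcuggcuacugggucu
miR-1928: aGCUACAUugccagcuc
miR-221-5p: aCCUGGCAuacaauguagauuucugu

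The first 8 bases of miR-221-3p and miR-222-3p were identical, and 11 of their 23 positions matched without gaps, so these arms differ only outside the seed. After the shared start, their longest common run was 6 bases (cugggu). miR-1928 is shorter, at 17 bases, and shared its first 10 bases with miR-221-3p. Of the 1608 array names with a RefSeq mature sequence, 3 had the seed of the 3p members. Only 1, miR-221-5p itself, had the seed of that arm. Array names without such a sequence, miR-222-5p among them, could not be searched.

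Both hairpins lie on the minus strand of chromosome X, separated by 504 bases, and no other gene of the RefSeq table starts between them. Mir221 spans chrX:19146294-19146388 and Mir222 chrX:19146893-19146971, so on the transcribed strand Mir222 comes first. The hairpins are shown to place the arms, with the annotated mature sequences in capitals.
Mir221: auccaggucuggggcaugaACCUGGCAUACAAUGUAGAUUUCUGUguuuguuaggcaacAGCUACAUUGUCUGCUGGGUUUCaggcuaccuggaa
Mir222: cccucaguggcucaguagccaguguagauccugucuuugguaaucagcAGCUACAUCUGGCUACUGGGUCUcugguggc

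In Mir221 the capitals mark the 5p arm at chrX:19146344-19146369 and the 3p arm at chrX:19146307-19146329. In Mir222 they mark the 3p arm at chrX:19146901-19146923. miR-222-5p was named on the array only.

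The scanner software calls a miRNA detected on an array when the summed signal of at least 1 of its probes exceeds 3 times its error. By that call 1 of the 4 members, mmu-miR-221-3p, was detected on both arrays. mmu-miR-222-3p was detected on array 1 only, and mmu-miR-221-5p and mmu-miR-222-5p on neither. Over all 1881 miRNAs, 10.7% were detected on both arrays, 16.6% on array 1 and 10.7% on array 2. The arrays shared a slide and a scan, so neither could be tested as a batch, and no spot was saturated. With 1 group of 2 arrays no p-value was computed, and spots of a probe are technical repeats within an array.

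mmu-miR-221-3p was read by 2 probes with 15 spots each. On array 1, probe A_54_P3830 had a mean processed intensity of 65.3 ± 2.0 (SD over 13 spots), with 2 spots left out as outliers. On array 2 it had 12.3 ± 2.15 (SD over 15 spots). The lowest spot on array 1 was 62.9 and the highest on array 2 was 16.5, so the spot values of this probe did not overlap between the arrays. Its other probe, A_54_P2640, had a mean of 39.5 ± 3.90 on array 1 and 6.88 ± 2.46 on array 2 (SD over 15 spots each). There too the ranges were separate, with 33.8 the lowest spot on array 1 and 11.7 the highest on array 2. This separation is not set beside that of other probes here, so it is not shown to be particular to miR-221-3p. Array 2 gave few or no spots well above background, so ratios are given as bounds, with array 2 set to the lowest log2 signal of any probe well above background there (3.76). Array 1 was then at least 4.81-fold brighter by A_54_P3830 and at least 2.90-fold brighter by A_54_P2640. Both probes were thus brighter on array 1, and by how much was not measured.

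The call on array 2 was close to its limit. A_54_P3830 reached 3.89 times its error there and A_54_P2640 reached 2.30 times, so miR-221-3p passed through 1 of its 2 probes, as against both on array 1 (9.19 and 8.14 times). Of the 202 miRNAs detected on array 2, 82 were detected by part of their probes, and 48 had a best probe with a lower multiple than that of miR-221-3p. Spots well above background numbered 28 of 28 on array 1 and 2 of 30 on array 2. When most spots had to be well above background on both arrays, 0 of the 4 members and 4.68% of all miRNAs passed. Over all its spots the mean was 51.5 on array 1 but 9.59 on array 2. The negative-control spots of array 2, 1000 in number, had a mean plus 3 SD of 9.81, which the mean of mmu-miR-221-3p therefore did not reach. Of its single spots there, 13 of 30 exceeded 9.81, as did 5 of the 1000 negative-control spots. These were 12 of 15 spots of A_54_P3830, whose own mean was 12.3, and 1 of 15 of A_54_P2640. With the mean over all spots held to that limit, 0 of the 4 members passed on array 2, beside 8.4% of all miRNAs. On both arrays 0 passed, beside 8.35%. On array 1 the same limit was 7.55, which both 3p members exceeded, beside 15.4% of all miRNAs. Of the 202 miRNAs called on array 2, 44 had a mean intensity at or under that limit, so miR-221-3p was 1 of a larger set of calls near background.

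**Figure D1:**
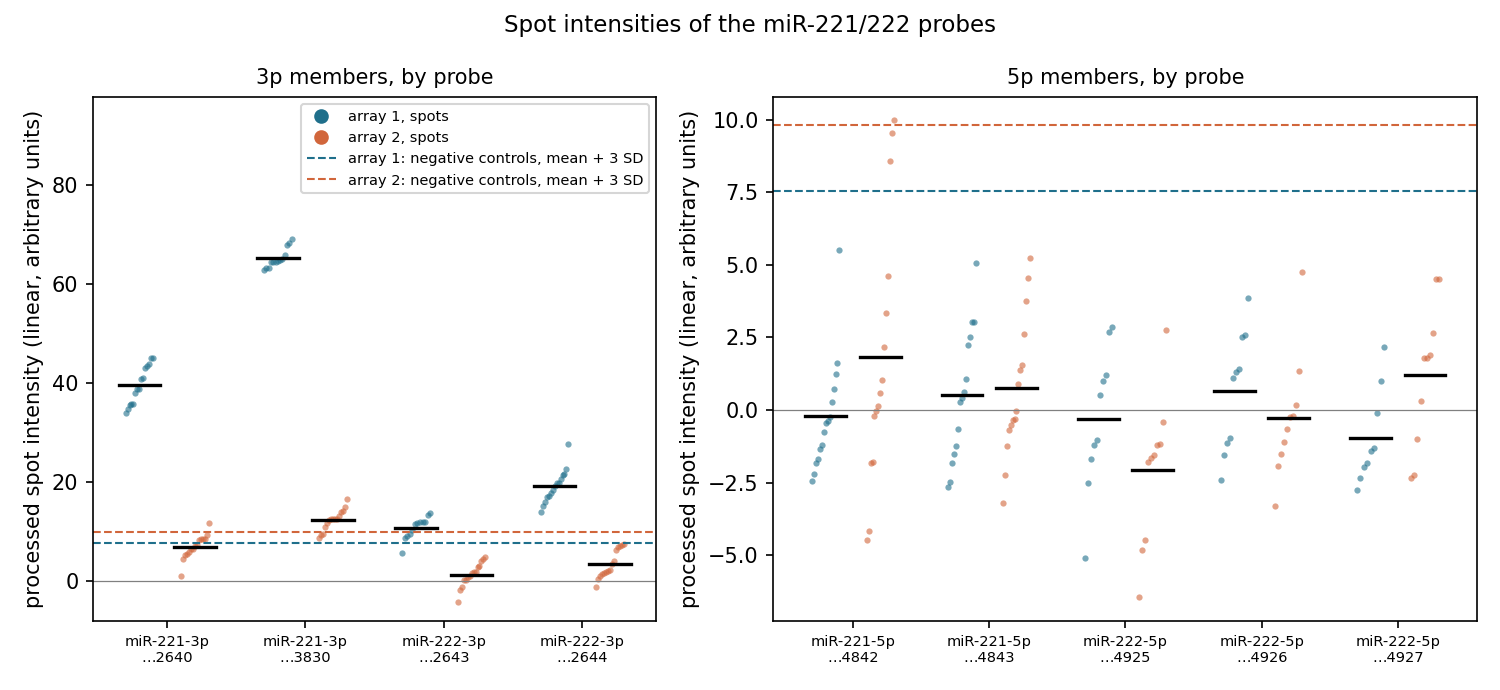
Processed intensity (linear, arbitrary units) of every spot used, by probe (last digits of its name) and array. Points are spots, black bars their mean, and dashed lines the mean plus 3 SD of each array's negative-control spots (7.55 on array 1 and 9.81 on array 2). The left panel (3p members) and right panel (5p members) have different vertical scales. All array 1 spots of miR-221-3p lie above its array 2 spots of the same probe, while the 5p spots scatter around 0. Probes of other miRNAs are not drawn, so this separation is not shown to be particular to miR-221-3p.

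On the log2 scale, miR-221-3p stood at 5.66 on array 1 and 3.12 on array 2 before scaling, a difference of 2.55. The array 2 value averages a detected and an undetected probe, and its mean intensity lay under the negative-control limit, so this difference is no measured fold. With array 2 at the lowest probe well above background, it was at least 1.90 log2 units, or at least 3.74-fold. Among the other 200 miRNAs detected on both arrays the median difference was 0.77, with an interquartile range of 0.19 to 1.64 and extremes of -1.21 and 3.09. Of these 200, 33 had a difference above the 1.90 that bounds miR-221-3p, and 2 had one above its unbounded 2.55. The differences of the other miRNAs were not bounded in this way, so the place of miR-221-3p in the range is not settled. The 4 spike-in controls detected on both arrays differed by 0.06 to 0.28 log2 units, array 1 being the brighter. The bound for miR-221-3p lay above the upper quartile of the unbounded differences of the other miRNAs and above every spike-in control. Whether the amount of exosome RNA, its labelling or its makeup differed between the experiments was not tested.

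Scaling each array to its 75th percentile over the 201 names called on both (6.29 and 4.58 as log2) removed 1.71 log2 units between the arrays. The scaled signal of miR-221-3p was then 4.81 on array 1 and 3.97 on array 2, a mean of 4.39 ± 0.59 (SD, n = 2). Its remaining difference was 0.83, and with array 2 at the lowest probe well above background the scaled signal was at least 1.14-fold higher on array 1. After the same scaling the other 200 detected miRNAs had a median difference of -0.91, that is, most were then higher on array 2. miR-221-3p stayed higher on array 1 with and without scaling, but by how much depended on it.

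The miRNAs with an unscaled difference most like that of miR-221-3p, by the absolute gap over the 2 arrays, were let-7f-5p (a difference of 2.44), miR-6944-5p (2.41), let-7d-5p (2.36), miR-690 (2.74) and miR-210-3p (2.35). With 2 arrays this likeness describes a single difference each, and that of miR-221-3p rests on an array 2 mean under the negative-control limit.

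**Figure D2:**
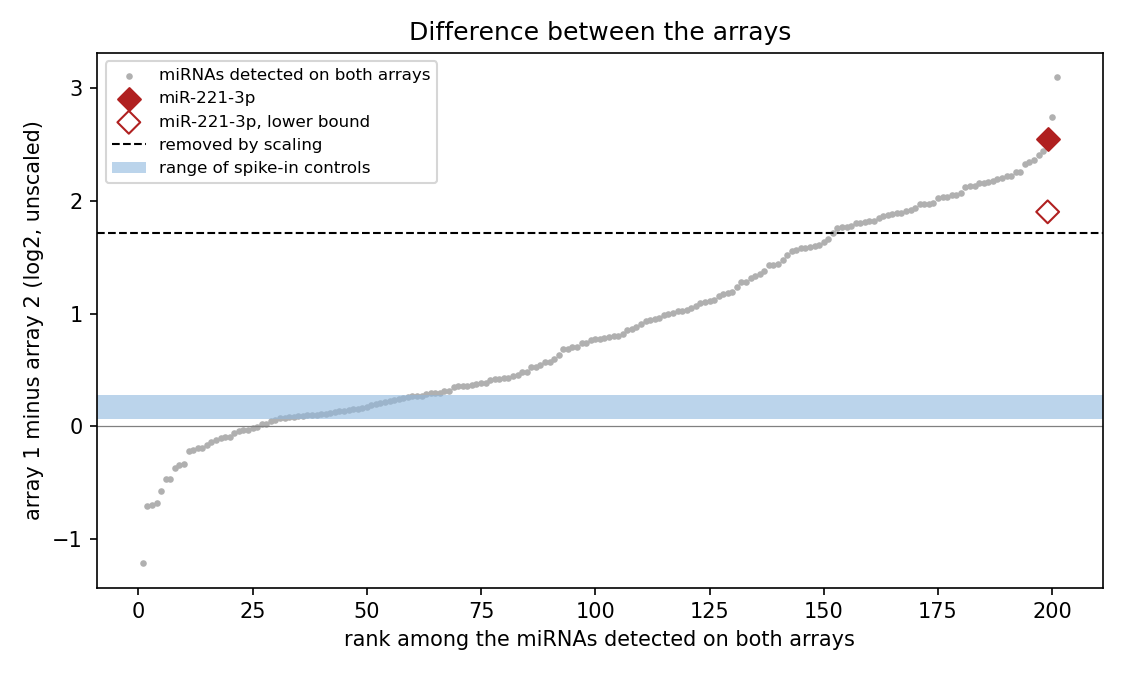
Array 1 minus array 2 of the unscaled log2 signal (vertical axis) for the 201 miRNAs detected on both arrays, ordered from lowest to highest (horizontal axis: rank). The filled diamond is miR-221-3p at 2.55, and grey points are the other 200. The open diamond is its bound of 1.90, given because its array 2 mean lay under the negative-control limit. The dashed line is the 1.71 log2 units removed by scaling, and the blue band is the range of the 4 spike-in controls, 0.06 to 0.28.

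mmu-miR-222-3p, the other guide strand, was also read by 2 probes of 15 spots. Probe A_54_P2644 had a mean intensity of 19.2 ± 3.43 on array 1 and 3.38 ± 2.87 on array 2 (SD over 15 spots each). Its lowest spot on array 1 was 13.9 and its highest on array 2 was 7.45. Probe A_54_P2643 had 10.7 ± 2.26 on array 1 (SD over 12 spots, with 3 left out) and 1.20 ± 2.51 on array 2 (SD over 15 spots). Spots of either probe did not overlap between the arrays, although for A_54_P2643 only 0.73 intensity units separated them. This separation, too, is not set beside that of other probes.

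Both probes of miR-222-3p were detected on array 1, at 5.63 and 3.57 times their error. On array 2 they reached 1.15 and 0.41 times, and 0 of 30 spots exceeded the negative-control limit. Unscaled, it stood at a log2 signal of 3.81 on array 1 and 1.11 on array 2. The difference of 2.70 is not a measured fold, since the signal on array 2 was not above background. With array 2 set to the lowest probe well above background there (3.76), the unscaled signal was at least 1.04-fold higher on array 1. After scaling no bound remained. The unscaled bound rests on A_54_P2644, which stood at 4.24 on array 1 with 14 of 15 spots well above background. A_54_P2643 stood at 3.38 on array 1, under 3.76, with 0 of 12 spots well above background, so it gives no bound alone. Among the 111 miRNAs detected on array 1 alone, 34 had a best probe further above its error than that of miR-222-3p. After scaling its values were 2.96 and 1.74, a mean of 2.35 ± 0.86 (SD, n = 2). Both 3p members were therefore dimmer on array 2 in every probe before scaling. The levels of miR-221-3p and miR-222-3p were not set against each other, since brightness depends on the probe.

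The 5p arms gave no signal above background. The 30 spots of mmu-miR-221-5p on array 1 ran from -2.66 to 5.53 with a median of -0.32, and on array 2 from -4.48 to 9.98 with a median of 0.37. The spots of mmu-miR-222-5p, which has 3 probes of 10 spots, ran from -5.10 to 3.85 (median -0.96, 29 spots) and from -6.43 to 4.77 (median -0.83, 30 spots). The negative-control spots ranged from -7.20 to 8.03 on array 1 and from -6.84 to 24.6 on array 2, so every 5p spot lay inside that range.

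Over the 5p arms, 1 spot exceeded the negative-control limit, a spot of miR-221-5p on array 2, and 0 were well above background on either array. Values at this level carry no order, so no difference between the arrays is given for them. miR-1928, which shares the seed of the 3p members, likewise went undetected on either array, at 0.34 and 0.36 (unscaled log2). Among names with a RefSeq sequence, the signal in the seed family thus came from miR-221-3p and miR-222-3p. Whether their probes also bound each other's miRNA was not tested.

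For miR-221-3p, the scanner files also list a total signal, which ran the other way from its spots. It was 22.2 on array 1 but 62.4 on array 2, which makes array 2 2.80-fold brighter. Its own detected probes summed to 22.2 on array 1 and 2.61 on array 2, and both own probes together to 22.2 and 4.07. Either sum was higher on array 1, although the second includes a probe that was not detected on array 2.

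On array 2 the listed total equalled, within 1%, its own detected sum plus the total listed for miR-22-3p (59.8), the detected name just before it in alphabetical order. The total of miR-22-3p in turn equalled its own sum of 7.17 plus the 52.6 listed for miR-21a-5p. On array 1 the listed totals of these miRNAs and of miR-222-3p equalled their own sums within 1%. The listed total of miR-221-3p on array 2 was therefore 23.9 times its own detected signal, and it was not used for its level. By the listed total it would have stood at 12.8 times its error, against 3.89 times by its own detected probe.

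**Figure D3:**
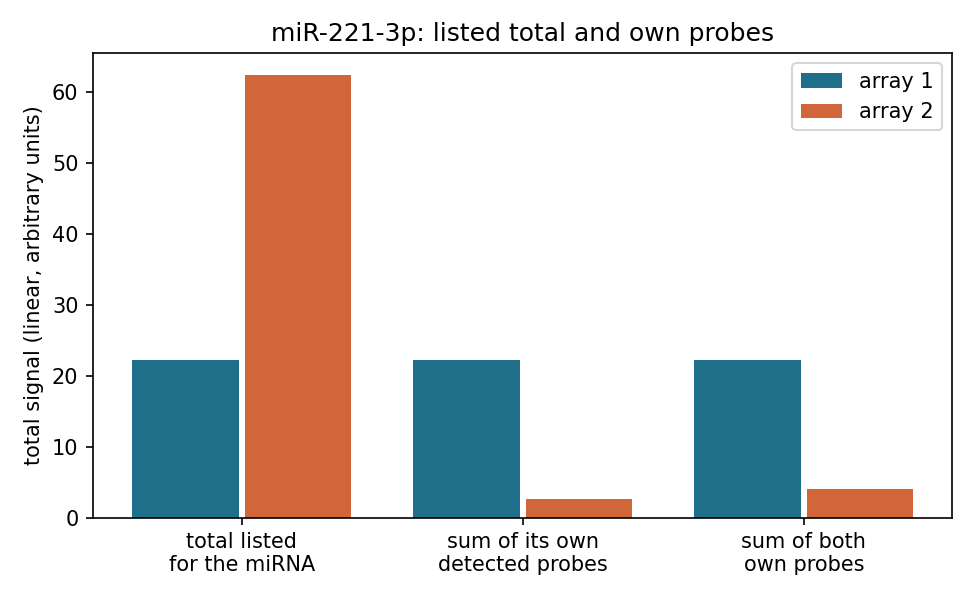
Total signal of miR-221-3p (linear, arbitrary units) on array 1 and array 2 as listed for the miRNA, as the sum of its own detected probes and as the sum of both own probes. The listed total is higher on array 2 (62.4 against 22.2), whereas both sums of its own probes are higher on array 1 (22.2 against 2.61 and 4.07).

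In the authors' deposited table of log2 values, whose centring is not known, miR-221-3p stood at 3.63 for array 1 and 2.04 for array 2. miR-222-3p stood at 1.99 and 0.47, although it was not detected on array 2, and both 5p arms stood at the lowest value of -3.32 in both columns. The authors' deposited table thus had miR-221-3p higher on array 1, as in the spots. It had miR-222-3p higher there too, but no support for the spots is drawn from that order. The array 2 value of miR-222-3p was 1 of 111, among 322 over the lowest, given to a name that went undetected on that array. On array 1, 0 of the 322 names over the lowest went undetected. Both columns of that table had the same lowest value and median (-3.32), the same highest value (13.2) and 322 names over the lowest. The values in it are therefore not read here as separate levels of each array.

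**Figure D4:**
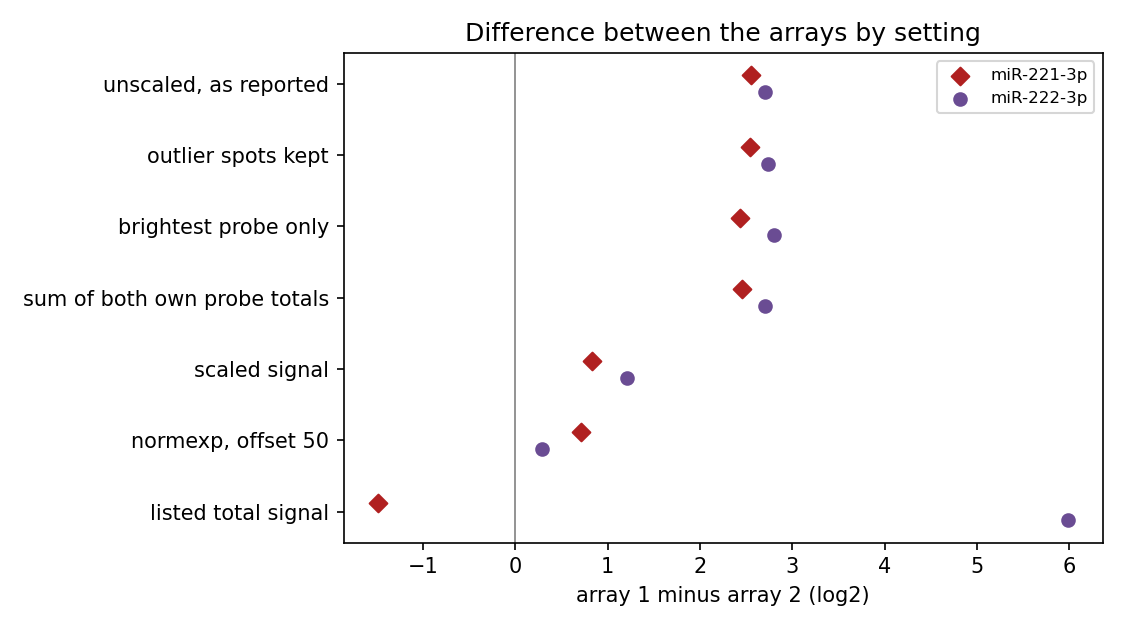
Array 1 minus array 2 (log2, horizontal axis) of miR-221-3p (red diamonds) and miR-222-3p (purple circles) under 7 ways of computing the signal. Every setting but the listed total places miR-221-3p to the right of 0, from 0.71 to 2.55, and the listed total places it at -1.49. miR-222-3p was not detected on array 2, where its listed total is a fixed lowest value, so its point at 5.99 is no measurement.

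p27(Kip1), a brake on the cell cycle, is the best known target of miR-221 and miR-222. Of 5 other miRNAs known to repress it, miR-24-3p was detected on both arrays, with unscaled log2 signals of 7.30 and 5.17. miR-148a-3p, miR-152-3p, miR-181a-5p and miR-196a-5p were detected on neither, with signals of at most 1.55. The 1 detected member of 5 stands beside the background of 10.7%, and with 5 members this count separates little.

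Of 6 arms of the vascular miRNAs miR-126a, miR-143 and miR-145a, 0 were detected on either array. Over all miRNAs 10.7% were detected on both arrays and 16.6% on array 1, so counts of 0 in lists this short are near the background. The endothelial marker miR-126a-3p had unscaled log2 signals of 2.35 and 0.64, and the smooth muscle markers miR-143-3p and miR-145a-5p had at most 0.36, all under the negative-control limits. Red cell markers (miR-451a, miR-486a-5p and miR-144-3p) were detected in 0 of 3 cases, and markers of epithelium (miR-200a-3p, miR-200b-3p, miR-200c-3p, miR-141-3p and miR-429-3p) in 0 of 5. Of 4 leukocyte markers, array 1 alone detected miR-142a-3p, at 4.21 and 1.95, and miR-142a-5p, miR-223-3p and miR-150-5p on neither. The part of other cells in the miR-221 and miR-222 signal was not tested.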

How the data were processed

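RNA of 2 exosome samples, 1 group by the labels, was read on one-colour Agilent miRNA arrays. Agilent Feature Extraction 10.7.1.1 made the deposited intensity of each spot, per the submitters' processing notes. These linear values are background-subtracted and spatially detrended array by array, per the file headers, with no normalization between arrays. Per the labels' protocols the dye came from a cRNA kit, whereas the headers name an miRNA protocol, so the labelling is unsettled. A deposited table by the authors gives log2 values, its centring unstated, and was tried as another source.

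Population-outlier spots were excluded. Intensities were scaled by array, set to at least 1 and taken as log2, then averaged over spots and then over probes. Scaling used the 75th percentile over miRNAs detected on both arrays. Unscaled values omit that step. Members, lists, and the rule for naming genes (the 4 members, same-seed miRNAs, the p27 and vascular lists, markers, and the 5 nearest differences) were chosen with earlier results of these data known. Another list of miRNAs is not reported here. Alternatives covered the detection rule, scaling, background correction, probes, outlier spots and the value table. Python 3.11.15, numpy 2.4.6, pandas 2.3.3, matplotlib 3.10.9, limma 3.58.1 and R 4.3.3 were used, and levels and scaling were tested on simulated arrays. Of the 1881 names, 1608 matched a RefSeq mature miRNA.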

Additional observations from a re-analysis of the deposited data

How the results depend on the processing

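The count of 1 member detected on both arrays fell to 0 when most of a member's spots had to be well above background, and to 0 when their mean intensity had to exceed the negative controls by 3 SD. It was also 0 under both rules with outlier spots kept, and 0 when a member's own detected probes had to exceed 6 times their error, a rule added once the data had been seen. It stayed at 1 by the listed total over 6 times its error, a total that on array 2 holds more than the member's own probes, and it was 2 for detection on at least 1 array. Leaving out 1 array gave a range of 1 (without array 1) to 2 (without array 2). The p27 list stayed at 1 and the vascular list at 0 under all of these rules, which were added for the lists after seeing the data.

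The mean of miR-221-3p, 4.39 as reported, was 6.43 by normexp with an offset of 50, 5.22 by the listed total, 2.84 in the authors' deposited table and 3.25 by the sum of both own probe totals, and with 1 array left out it ranged from 3.97 to 4.81. For miR-222-3p, 2.35 as reported, these were 6.05, -0.33, 1.23 and 1.31, and 1.74 to 2.96. These alternatives have other units or zero points, so the means are not on one scale. The difference of miR-221-3p between the arrays, 2.55 unscaled, was 0.83 after scaling and 0.71 by normexp, whose offset draws low signals together. It reversed to -1.49 by the listed total. For miR-222-3p, 2.70 unscaled, it was 1.21 after scaling, 0.28 by normexp and 5.99 by the listed total. Normexp adds its offset to both arrays. Scaling removed 1.71 log2 units between the arrays, and the listed total of miR-222-3p on array 2 is a fixed lowest value. The cause of any other shift was not tested beyond the sums given for the listed total. No paired analysis was possible because there is only 1 group. The number of arrays limits the precision of every value, and on array 2 the mean of each 3p member lay under the negative-control limit.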
